A study of Mus musculus with 8 samples.

Results

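The collagen chains are the genes whose symbol has the form Col, a type number, the letter a and a chain number, such as Col1a1. All 44 such symbols among the 24421 genes counted were taken by symbol alone, and collagens were chosen as the subject with earlier results of these data known. They fall into 11 fibrillar chains, 8 basement membrane chains (the 6 type IV chains, Col15a1 and Col18a1) and 25 other chains, among them 6 beaded filament, 9 FACIT (fibril-associated), 4 transmembrane and 3 short-chain collagens. A collagen molecule is a triple helix of chains that are wound together in the endoplasmic reticulum, secreted and built into the extracellular matrix. Fibrillar collagens form the fibrils of connective tissue, type IV collagens form the network of basement membranes, and many other collagens sit on fibrils, form fine filaments or span the cell membrane. Basement membranes are known as the earliest matrix of the mouse embryo, and fibrillar collagens as products of mesenchymal cells.

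RNA came from R1, a mouse embryonic stem cell (ESC) line, before differentiation (Undiff) and after embryoid bodies, free-floating aggregates of such cells, had been treated for 4 days with retinoic acid (RA), an inducer of differentiation (Day4). Per the study's methods, the embryoid bodies had first grown for 4 days without leukaemia inhibitory factor, which the Undiff medium held. Effects of RA, of removing this factor, of growth as aggregates and of time therefore cannot be told apart here. Every library carries the tissue label embryoid bodies, although the growth protocol gives the name undiff to cells that had spent 4 days in stem cell medium, and the RA concentration is 2 µM in the design text but 2 mM in the treatment label. Polyadenylated RNA of both states was read on nanopores with the ONT Direct RNA kit (500 ng of input), which reads the RNA strand itself, and with the ONT cDNA kit (50 ng), which reads an amplified copy. There were 2 replicates for each state and kit, 8 libraries in all, and values of replicates 1 and 2 are given in that order. Embryoid bodies are mixtures of cells, so in these bulk samples more cells of a type and more RNA per cell cannot be told apart.

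Levels are given as CPM, the reads of a gene per 1e6 reads on genes. The Direct RNA libraries held between 283461 and 907489 reads on genes, and the cDNA libraries between 948657 and 2088592. A level that stands for 3 reads, taken as the lowest that a library can show, ranged from 3.31 to 10.6 CPM over the Direct RNA libraries and from 1.44 to 3.16 CPM over the cDNA libraries. Intervals are 95% Wilson intervals and, like these floors, cover counting error only. As a check of the labels, all 8 pluripotent stem-like markers fell from Undiff to Day4 in both kits, with a summed level of 10655.5 and 12731 CPM in Direct RNA Undiff and 116 and 525 CPM in Direct RNA Day4. The same sum was 20815 and 23522 CPM in cDNA Undiff and 85.0 and 923 CPM in cDNA Day4, so replicate 2 of Day4 had more of these RNAs than replicate 1 in both kits.

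Collagen reads were few before differentiation and several times more frequent at Day4. In Direct RNA the chains together took 0.0562% (95% interval 0.0489 to 0.0647) and 0.0659% (0.0608 to 0.0714) of the reads on genes in Undiff, and 0.484% (0.459 to 0.510) and 0.257% (0.246 to 0.269) in Day4. In cDNA the share was 0.00517% (0.00391 to 0.00683) and 0.00867% (0.00749 to 0.0100) in Undiff, and 0.0425% (0.0391 to 0.0461) and 0.0491% (0.0461 to 0.0522) in Day4. The states did not overlap in either kit, and neither did the kits within a state. With 2 libraries a group, an exact permutation test of a single value cannot go below a two-sided p of 0.333, so no test was run on these shares. The number of chains with more than 1 read was 12 and 13 in Direct RNA Undiff, 20 and 29 in Direct RNA Day4, 5 and 11 in cDNA Undiff and 22 and 31 in cDNA Day4. These counts move with depth. After thinning to 283461 reads per library, the expected number was 8.70 ± 1.66 (SD, n = 2) and 21.0 ± 1.40 for Direct RNA and 2.24 ± 0.153 and 14.9 ± 1.99 for cDNA, in Undiff and Day4.

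The make-up of the collagen reads differed between the states as well. Fibrillar chains took 5.61% and 5.18% of the collagen reads in Direct RNA Undiff against 64.6% and 51.2% in Direct RNA Day4, and 20.4% and 15.5% in cDNA Undiff against 63.4% and 62.9% in cDNA Day4. Basement membrane chains took 83.7% and 88.0% in Direct RNA Undiff and 53.1% and 72.9% in cDNA Undiff, but between 23.1% and 36.5% in the 4 Day4 libraries. Their level was nonetheless higher at Day4, at 471 and 580 CPM in Direct RNA Undiff against 1298 and 941 CPM in Day4, and at 27.4 and 63.2 CPM in cDNA Undiff against 119 and 113 CPM in Day4. The fibrillar level was 31.6 and 34.2 CPM against 3122 and 1319 CPM in Direct RNA, and 10.5 and 13.4 CPM against 269 and 309 CPM in cDNA. In all 4 Undiff libraries the most abundant chain was Col18a1, the basement membrane collagen whose C-terminal fragment is endostatin, with 67.9%, 82.8%, 44.9% and 70.7% of the collagen reads. In all 4 Day4 libraries it was Col3a1, the type III chain of distensible tissues such as skin and vessel wall, with 38.3%, 32.9%, 32.0% and 30.8%. The order was the same per length: over the longest coding transcript, Col3a1 stood at 243 ± 128 CPM per kilobase (SD, n = 2) and Col18a1 at 120 ± 26.5 in Direct RNA Day4, and at 25.8 ± 1.95 and 12.4 ± 1.90 in cDNA Day4. In Direct RNA Day4 the replicates of Col3a1 (333 and 152) lay above those of Col18a1 (139 and 101), although the means overlapped within 1 SD. Next came Col1a2 at 63.9 ± 50.5, Col1a1 at 51.6 ± 33.9, Col26a1 at 40.7 ± 10.6 and Col4a1 at 33.3 ± 5.67 CPM per kilobase, and from Col18a1 on these are neighbours that do not differ beyond their spread.

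**Figure D1:**
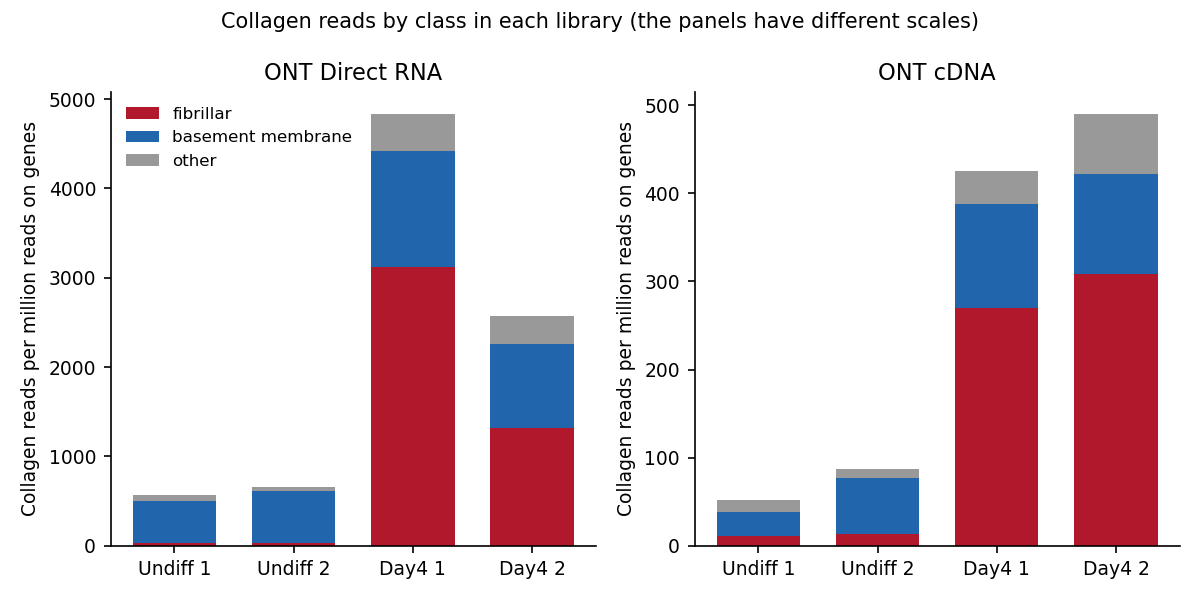
Collagen reads in CPM (vertical axis, with a different scale for each kit) in each of the 8 libraries, stacked by class. Fibrillar chains made up 51.2% to 64.6% of the column in the Day4 libraries and 5.18% to 20.4% in the Undiff libraries.

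Not every chain could be followed. Col10a1 and Col19a1 had no read in any library, and a further 19 chains had at most 5 reads in every library: Col4a3, Col4a4, Col5a3, Col6a4, Col6a5, Col6a6, Col7a1, Col8a1, Col9a3, Col11a2, Col12a1, Col14a1, Col16a1, Col17a1, Col20a1, Col22a1, Col24a1, Col25a1 and Col28a1. Col4a6, Col6a3, Col9a1, Col15a1 and Col23a1 had up to 25 reads in a library but a mean normalised count under 5 in every fit. A mean of 5 was the minimum for a call, and 18 of the 44 chains reached it in at least 1 fit. A chain could reach it through Day4 alone, so counts of calls among these chains are descriptions. A chain was called where DESeq2 gave an adjusted p of 0.05 or less over all genes and a log2 change, the log2 of the fold change, of 1 or more in either direction.

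The comparison of Day4 with Undiff asked which chains changed as the cells differentiated. In Direct RNA, 12 of the 17 chains with a mean of at least 5 rose and none fell by DESeq2, where 17.2% of the 9646 genes tested were called, 9.54% higher and 7.67% lower. In cDNA, 5 of 14 rose and none fell, where 17.9% of 10271 genes were called, 8.69% higher and 9.24% lower. With the replicate number as a block, 6 chains were called in Direct RNA and 0 in cDNA. No chain was lower with an unadjusted p of at most 0.05, and edgeR called no chain lower in either kit, while it called 14 chains higher with Direct RNA and 11 with cDNA. The share of all genes that edgeR called is not given, so its counts, here and below, have no background to be read against. The median log2 change was 3.64 over the 17 chains and 0.03 over all genes in Direct RNA, and 2.60 over the 14 chains and 0.00 in cDNA. A chain could pass the minimum through Day4 alone, which pushes such a median up, so these medians are descriptions as well. By class, 6 of 7 fibrillar, 3 of 4 basement membrane and 3 of 6 other chains rose in Direct RNA, and 4 of 8, 1 of 4 and 0 of 2 in cDNA, where edgeR called 7, 3 and 1. Fewer chains were called in each kit whichever library was left out. The share of all genes called without a library, or with the block, is not given.

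A group of 12 chains had no read in any of the 4 Undiff libraries, and 4 of these, Col3a1, Col1a2, Col4a5 and Col6a1, were called higher at Day4 in at least 1 kit. The stretch of genome just before the start of each of these 4 is printed here, because they are the called chains with reads in Day4 libraries alone. The bases come from RefSeq promoter windows on GRCm38.p6, the build that mm10 names. Each runs 5′ to 3′ on the strand of the gene and was cut to the bases outside GENCODE exons, at chr1:45311288-45311537 (plus strand) for Col3a1, chr6:4505370-4505492 (plus) for Col1a2, chrX:141475169-141475384 (plus) for Col4a5 and chr10:76726169-76726294 (minus) for Col6a1. For Col1a2 the GENCODE gene begins further upstream, so its stretch lies between exons of that annotation. Capitals mark matches, on either strand, to the GC box (GGGCGG), the CCAAT box (CCAAT), the TATA box (TATAAA) and the nuclear receptor site (AGGTCA), and no match overlapped another.
Col3a1: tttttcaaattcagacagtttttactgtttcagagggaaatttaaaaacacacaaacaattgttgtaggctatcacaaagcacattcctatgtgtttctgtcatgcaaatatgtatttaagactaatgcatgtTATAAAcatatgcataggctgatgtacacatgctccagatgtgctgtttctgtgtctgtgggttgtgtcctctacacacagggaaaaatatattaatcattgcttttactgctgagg
Col1a2: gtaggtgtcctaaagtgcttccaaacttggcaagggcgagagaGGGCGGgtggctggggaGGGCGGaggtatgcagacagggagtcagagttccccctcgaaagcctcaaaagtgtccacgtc
Col4a5: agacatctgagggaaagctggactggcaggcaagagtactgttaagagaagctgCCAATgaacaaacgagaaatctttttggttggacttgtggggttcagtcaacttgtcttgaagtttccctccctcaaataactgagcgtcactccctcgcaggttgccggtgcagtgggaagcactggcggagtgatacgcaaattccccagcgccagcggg
Col6a1: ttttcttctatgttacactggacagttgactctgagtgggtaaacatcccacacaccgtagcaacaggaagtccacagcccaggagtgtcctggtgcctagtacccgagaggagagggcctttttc
The stretch before Col1a2 held the GC box at positions -205 and -188 from the RefSeq start, that before Col3a1 held the TATA box at -117, that before Col4a5 held the CCAAT box at -196, and that before Col6a1 held none of the 4 motifs. Over 300-base windows, the promoter table had 38 promoters of 35 collagen chains, of which 60.5% held the GC box, 34.2% the CCAAT box, 13.2% the TATA box and 21.1% the receptor site. Among all 32851 promoters the shares were 35.7%, 37.4%, 13.6% and 16.3%. These matches describe letters and say nothing of whether a factor binds there.

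Among the fibrillar chains, those of type III and type I collagen had the largest log2 changes in Direct RNA. Col3a1 had no read in Undiff, and at Day4 it stood at 1852 and 847 CPM in Direct RNA and at 136 and 151 CPM in cDNA. The Day4 reads numbered 525, 625, 179 and 314, the most of any chain in each of these libraries. Set against the 3-read floor of Undiff, the Day4 mean was at least 157-fold higher (Direct RNA) and at least 45.4-fold higher (cDNA), and the lower Day4 library alone at least 98.4-fold and at least 42.9-fold higher. The Direct RNA mean rests largely on Day4 replicate 1. The fitted log2 change, whose size depends on the fit where a group has no reads, was 9.12 (standard error, SE, 1.09, adjusted p = 1.26e-14) for Direct RNA and 7.97 (SE 1.11, adjusted p = 8.16e-11) for cDNA. Col1a2, the second chain of type I collagen, the main collagen of bone, skin and tendon, was likewise absent from Undiff and stood at 533 and 150.5 CPM in Direct RNA Day4 and at 64.5 and 48.1 CPM in cDNA Day4. Against the same floor the Day4 mean was at least 39.7-fold higher with Direct RNA (adjusted p = 2.26e-05), but at least 17.5-fold higher in Day4 replicate 2 alone, and at least 17.8-fold higher with cDNA (adjusted p = 4.31e-07), where the lower library gave at least 15.2-fold. Col1a1, the major chain of type I, had 2 and 1 reads in Direct RNA Undiff (5.74 and 1.10 CPM) and 1 read in each cDNA Undiff library. It stood at 448 and 164 CPM in Direct RNA Day4 and at 13.7 and 20.7 CPM in cDNA Day4. The ratio of the pooled shares, with its counting interval, was 102 (34.4 to 496) in Direct RNA and 27.3 (7.24 to 230) in cDNA, with log2 changes of 5.59 (SE 1.00, adjusted p = 1.40e-06) and 3.62 (SE 1.09, adjusted p = 0.0116). In cDNA the call of Col1a1 was lost without Undiff replicate 2 (2.74), Day4 replicate 1 (3.18) or Day4 replicate 2 (2.83), while Col3a1 and Col1a2 remained called in both kits whichever library was left out. With the replicate number as a block, however, neither was called: the DESeq2 adjusted p was 0.830 (Direct RNA) and 0.726 (cDNA) for Col3a1 and 0.832 and 0.730 for Col1a2. The values stayed above 0, at 1.68 and 1.77 for Col3a1 and 1.67 and 1.75 for Col1a2, and without shrinkage at 11.8 and 9.80 and at 9.66 and 8.42. The block also ended the Direct RNA calls of Col4a5 (1.64, and 7.72 without shrinkage), Col6a1 (1.64, and 7.79 without shrinkage), Col5a1 (2.58) and Col11a1 (3.30), and in cDNA those of Col1a1 (3.25), Col4a5 (3.25) and Col5a2 (3.38).

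The minor fibrillar chains Col5a1, Col5a2 and Col11a1 also rose in Direct RNA, and Col5a2 in cDNA. Type V and type XI collagens sit inside fibrils of the major types and set their diameter. Col5a1 stood at 5.74 and 13.2 CPM in Direct RNA Undiff and at 109 and 58.3 CPM in Direct RNA Day4, with a log2 change of 2.68 (SE 0.73, adjusted p = 0.00427). Its cDNA level was 1.05 and 1.92 CPM in Undiff and 5.31 and 12.5 CPM in Day4, with a log2 change of 1.84 (adjusted p = 0.387). The states did not overlap in either kit, but the call in Direct RNA was lost whichever of the 4 libraries was left out, at log2 changes between 2.06 and 3.13. Both Day4 libraries lay above both Undiff libraries for 31.9% of genes with a read in Direct RNA and 36.9% in cDNA. They lay below for 25.1% and 19.6%, so states without overlap are common among all genes. Col5a2 never had more than 2 reads in Undiff and stood at 116 and 10.9 CPM in Direct RNA Day4 and at 13.7 and 11.1 CPM in cDNA Day4. Its log2 change was 3.64 (SE 1.02, adjusted p = 0.00588) for Direct RNA and 3.85 (SE 1.24, adjusted p = 0.0220) for cDNA. The Direct RNA value rests on Day4 replicate 1, since it was 0.97 (adjusted p = 0.95) without that library, and the call was also lost without Undiff replicate 2 (2.57) and with a minimum of 10 reads in total (3.02). In cDNA the call of Col5a2 was lost whichever library was left out, at values between 2.74 and 3.48. Col11a1, a chain of type XI, stood at 5.74 and 0 CPM in Direct RNA Undiff and at 52.9 and 43.4 CPM in Day4. In cDNA it stood at 2.11 and 1.92 CPM in Undiff and at 12.1 and 26.0 CPM in Day4. The log2 change was 3.75 (SE 1.02, adjusted p = 0.00423) for Direct RNA and 2.61 (SE 0.94, adjusted p = 0.0502) for cDNA. The Direct RNA call was lost without Undiff replicate 2 (2.37), Day4 replicate 1 (1.51) or Day4 replicate 2 (1.80), and in cDNA edgeR called Col11a1 (2.93, adjusted p = 0.000177).

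Col27a1, a fibrillar chain of growing cartilage, had few reads in Direct RNA. There were 0 and 1 reads in Undiff and 1 and 3 in Day4 with that kit, against 0 and 8 reads in cDNA Undiff and 20 and 54 in cDNA Day4 (15.2 and 26.0 CPM). Its change between states in cDNA was 2.59 (SE 0.96, adjusted p = 0.0580), and edgeR called it (2.75, adjusted p = 0.000217). Col2a1, the main collagen of cartilage, showed no change that could be told from the spread: it stood at 8.61 and 15.4 CPM in Direct RNA Undiff and at 7.06 and 29.8 CPM in Day4, with a log2 change of 0.47 (SE 1.02). In cDNA the value was 0.24 (SE 0.98), and the states overlapped in both kits.

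**Figure D2:**
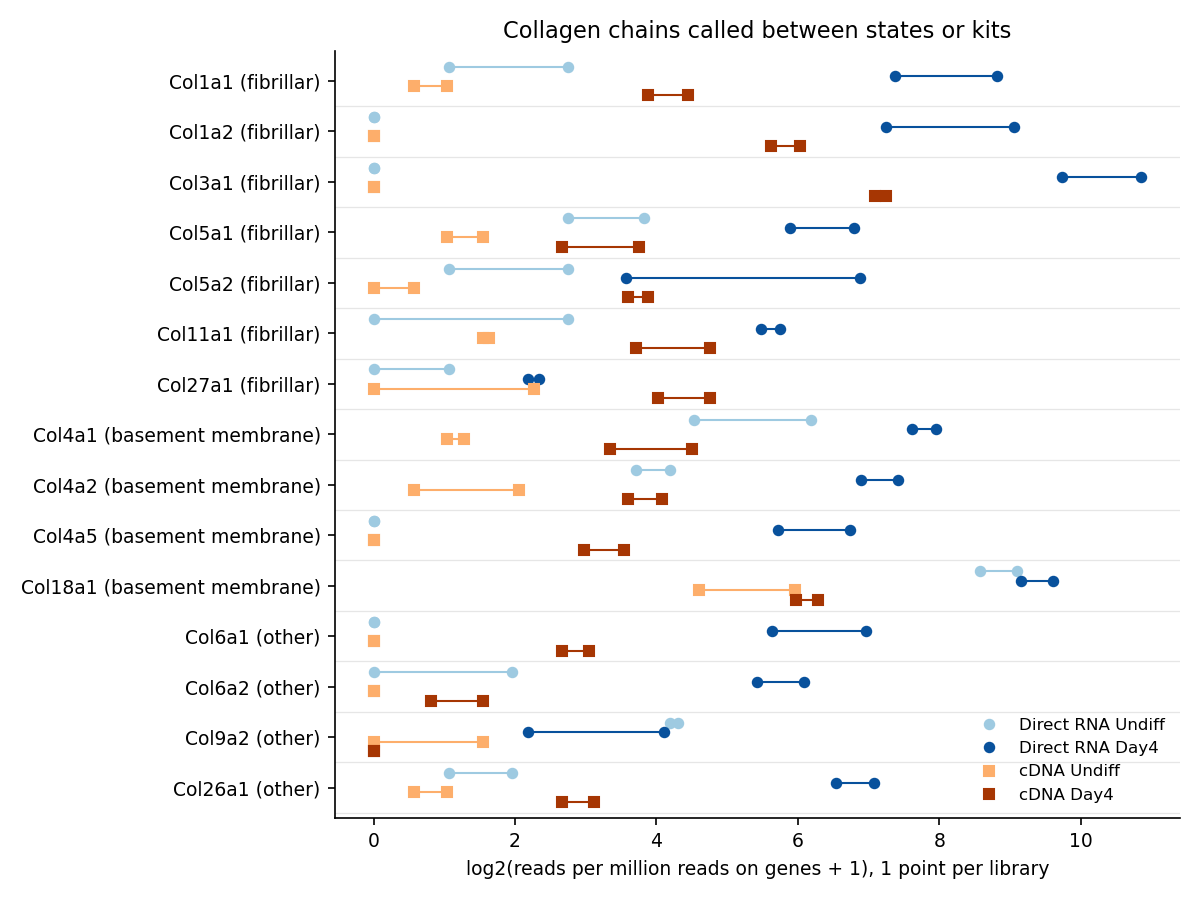
Level of the 15 chains called between states or between kits, as log2(CPM + 1) on the horizontal axis, with 1 point per library and a line joining the 2 replicates of a group. Col3a1, Col1a2, Col4a5 and Col6a1 lie at 0 in all Undiff libraries, and for Col18a1 the states lie close together within each kit.

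Among the basement membrane chains, Col4a1, Col4a2 and Col4a5 rose in Direct RNA, Col4a5 also rose in cDNA, and Col18a1 was not called in either. Col4a1 and Col4a2 form the common type IV network. Col4a1 stood at 71.7 and 22.0 CPM in Direct RNA Undiff and at 247 and 194 CPM in Day4, and Col4a2 at 17.2 and 12.1 CPM and at 169 and 118 CPM. Log2 fold changes were 2.16 (SE 0.52, adjusted p = 0.000730) and 3.08 (SE 0.60, adjusted p = 1.16e-05). In cDNA, Col4a1 stood at 1.05 and 1.44 CPM in Undiff and at 9.10 and 21.7 CPM in Day4, and Col4a2 at 3.16 and 0.479 CPM and at 15.9 and 11.1 CPM. There the log2 changes were 2.81 (adjusted p = 0.0597) and 2.37 (adjusted p = 0.146), and edgeR called both (adjusted p = 0.000183 and 0.00140). The states did not overlap for either chain in either kit, which is common among all genes, as given above. In Direct RNA the call of Col4a1 was lost without Undiff replicate 2 (1.44), Day4 replicate 1 (1.95) or Day4 replicate 2 (2.21), and that of Col4a2 without Undiff replicate 2 (2.69).

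Col4a5, a chain of the type IV network of kidney and smooth muscle, had no read in Undiff. At Day4 it stood at 106 and 51.5 CPM in Direct RNA and at 6.83 and 10.6 CPM in cDNA, so that the mean was at least 9.14-fold higher than the Undiff floor with the former kit and at least 2.75-fold higher with the latter. The lower library of each pair was at least 5.98-fold (Day4 replicate 2) and at least 2.16-fold higher. The log2 changes were 5.98 (SE 1.16, adjusted p = 1.08e-05) and 4.05 (SE 1.38, adjusted p = 0.0328), and the cDNA call was lost whichever library was left out, at values between 2.71 and 3.77. Col4a6, its neighbour, had no read in Undiff either and 0 and 5 reads in Direct RNA Day4 and 9 and 5 in cDNA Day4. Col4a3 and Col4a4, the chains of the mature glomerular basement membrane, had reads in cDNA Day4 alone, 3 and 3 for Col4a3 and 1 and 1 for Col4a4. Col15a1 had at most 8 reads in a library.

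Col18a1 stood at 382 and 545.5 CPM in Direct RNA Undiff and at 776 and 567 CPM in Direct RNA Day4, and at 23.2 and 61.3 CPM in cDNA Undiff and 76.6 and 61.6 CPM in cDNA Day4. Both Day4 values were above both Undiff values in each kit, by little for the nearest pairs. The log2 change was 0.40 (SE 0.32, adjusted p = 0.588) for Direct RNA and 0.39 (SE 0.55, adjusted p = 0.862) for cDNA, where leaving out a library gave values from -0.14 (without Undiff replicate 1) to 1.11 (without Undiff replicate 2). In Direct RNA they ran from 0.05 to 0.69, without the same libraries. With mean counts of 281 and 81.6, Col18a1 was the second most abundant chain at Day4 and the most abundant in Undiff, so in both kits it was measured at a higher mean than every called chain except Col3a1.

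**Figure D3:**
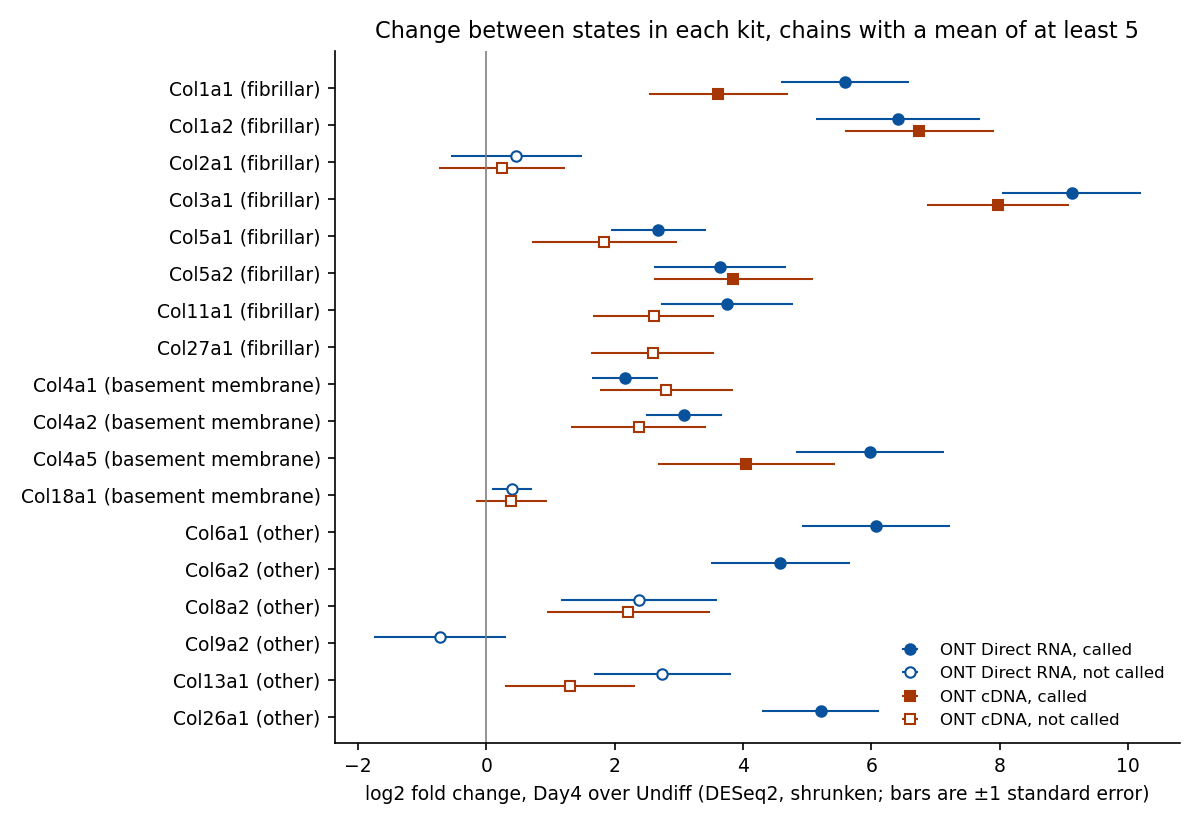
DESeq2 log2 change of Day4 over Undiff (horizontal axis, bars of 1 SE) for each chain with a mean of at least 5, in Direct RNA (circles) and cDNA (squares), filled where called. The called chains lie between 2.16 and 9.12, and Col18a1, Col2a1 and Col9a2 lie between -0.73 and 0.47.

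Among the other collagens, Col6a1, Col6a2 and Col26a1 rose in Direct RNA. Type VI chains assemble into beaded filaments around cells. Col6a1 had no read in Undiff and stood at 123.5 and 48.8 CPM in Direct RNA Day4 and at 5.31 and 7.22 CPM in cDNA Day4. Against the Undiff floor the Direct RNA Day4 mean was at least 10-fold higher and Day4 replicate 2 alone at least 5.67-fold higher, with a log2 change of 6.08 (SE 1.15, adjusted p = 6.41e-06). The cDNA mean was at least 1.98-fold higher, and the lower library at least 1.68-fold, with a mean of 4.16 and a DESeq2 adjusted p of 0.0932, and was not called. Col6a2 had 1 and 0 reads in Direct RNA Undiff and stood at 67.0 and 42.0 CPM in Direct RNA Day4, a pooled ratio of 61.5 (10.5 to 2480) with a log2 change of 4.58 (SE 1.08, adjusted p = 0.000551). With cDNA there was no read in Undiff and 1 and 4 reads in Day4, and the Direct RNA call was lost without Undiff replicate 2 (3.13) or Day4 replicate 1 (3.46). Col6a3, the third chain of type VI, had 3 and 1 reads in Direct RNA Day4 and 2 and 25 in cDNA Day4. Col26a1 had 1 read in every Undiff library. It stood at 134 and 92.2 CPM in Direct RNA Day4 and at 5.31 and 7.70 CPM in cDNA Day4, with a pooled ratio of 65.2 (17.6 to 545) and 10.3 (2.54 to 90). In cDNA its mean of 4.97 lay under the minimum for a call, with a log2 change of 2.20 (SE 1.27) and an adjusted p of 0.337 by DESeq2 and 0.0265 by edgeR. Its log2 change was 5.21 (SE 0.91, adjusted p = 5.73e-07) in Direct RNA, where the call held whichever library was left out.

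The other chains with enough reads were not called between states. Col13a1, a transmembrane collagen, had log2 changes of 2.74 (adjusted p = 0.0788) and 1.30 (adjusted p = 0.566) in Direct RNA and cDNA, and Col8a2, a short-chain collagen of the corneal endothelium, 2.38 (adjusted p = 0.237) and 2.21 (adjusted p = 0.334). edgeR called both chains in Direct RNA and Col8a2 in cDNA. Col9a2, a FACIT collagen of cartilage, was the one chain with a negative value among the 17, at 17.2 and 18.7 CPM in Direct RNA Undiff against 3.53 and 16.3 CPM in Day4, with a log2 change of -0.73 (SE 1.03, adjusted p = 0.858).

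The interaction of kit and state asked whether the change between states differed between kits. DESeq2 called no chain, where 0.0116% of 17267 genes were called, no chain had an unadjusted p of at most 0.05, and edgeR called no chain either. The estimates had wide errors: the log2 difference, cDNA minus Direct RNA, was -2.40 (SE 1.55) for Col1a1, -3.01 (SE 1.75) for Col26a1 and -2.13 (SE 2.13) for Col3a1, and -0.02 (SE 0.62) for Col18a1. Over the 18 chains with a mean of at least 5 the median was -1.56, against -0.01 over all genes, and 3 of the 18 were positive. A chain called in Direct RNA but not in cDNA is therefore not shown to have changed differently in the 2 kits.

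The comparison of kits, made in one fit of the 8 libraries that also held a term for state, asked which chains take a larger share of reads in one kit. DESeq2 called 12 of the 18 chains with a mean of at least 5 lower in cDNA and 1 higher, where 51.3% of the 10426 genes tested were called, 24.7% higher and 26.6% lower. edgeR called 13 lower and 1 higher. All 4 basement membrane chains, 4 of 8 fibrillar chains and 4 of 6 other chains were called lower, and the median log2 change was -2.32 over the 18 chains and -0.02 over all genes. The values were -3.65 (SE 0.76) for Col6a2, -3.44 (SE 0.88) for Col9a2, -3.37 (SE 0.46) for Col4a1, -2.98 (SE 0.54) for Col1a1 and -2.89 (SE 0.54) for Col26a1. They were -2.60 for Col6a1, -2.58 for Col4a2, -2.58 for Col18a1, -2.40 for Col3a1, -2.25 for Col5a1, -2.16 for Col4a5 and -1.69 for Col1a2, with adjusted p between 5.60e-18 for Col18a1 and 0.0113 for Col1a2. Col27a1 was higher in cDNA by 2.42 (SE 0.79, adjusted p = 0.00769). Col5a2 (-1.54), Col8a2 (-0.76), Col2a1 (-0.63), Col11a1 (-0.33) and Col13a1 (-0.29) were not called.

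Single libraries decided some of the calls between kits. Without Direct RNA Day4 replicate 1 the calls of Col1a2 (-0.68), Col4a5 (-1.44) and Col6a1 (-1.675) were lost, and that of Col1a2 was also lost without cDNA Day4 replicate 1 (-1.605) or replicate 2 (-1.22). Col27a1 was not called without cDNA Day4 replicate 1 (2.27), cDNA Day4 replicate 2 (1.93) or Direct RNA Day4 replicate 2 (2.175). Col9a2, with a mean of 5.02, was not called without either Direct RNA Undiff library, Direct RNA Day4 replicate 2 or cDNA Undiff replicate 2, at values between -4.36 and -2.84, because its mean then fell under 5. Col5a2 was called without Direct RNA Day4 replicate 2 (-2.18). Without any 1 library, between 10 and 13 chains were called.

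Collagen transcripts are long, and length goes with the difference between kits across genes. The longest coding transcript of the 18 chains had a median of 5579.5 bases and ranged from 2781 (Col26a1) to 8406 (Col5a1), against a median of 3050 over all genes. The median log2 change between kits was 1.07 for genes in the lowest length quartile, up to 1930 bases, and -0.69 for those in the highest, above 4551 bases, which held 13 of the 18 chains. Among the 5209 other genes in the length range of the chains, the median was -0.57 and 64.2% were lower in cDNA, against 17 of the 18 chains. Across genes, which are not independent, the Spearman coefficient of the kit difference and length was -0.331. Across the 18 chains, which come from the same 8 libraries, it was 0.30, and the shortest, Col26a1 and Col9a2, were among those furthest below 0. The transcripts of the chains also had a higher GC content, with a median of 58.5% against 50.2%, and the part of length and GC in the difference between kits was not tested.

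**Figure D4:**
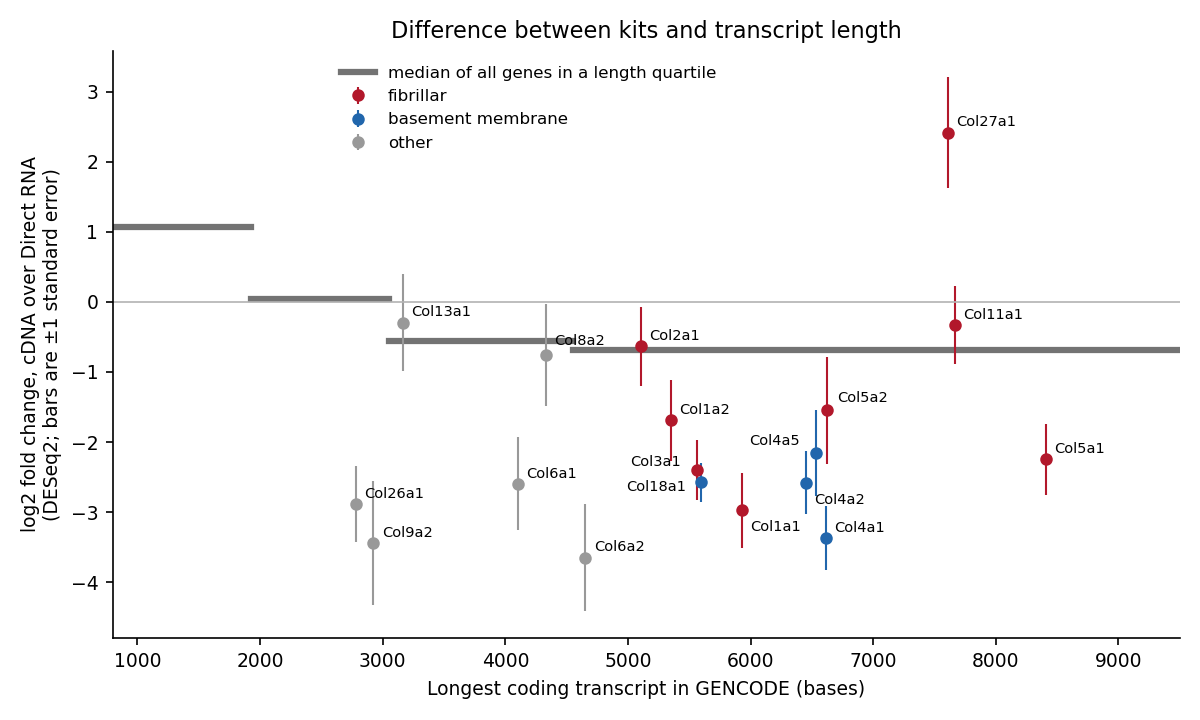
DESeq2 log2 change of cDNA over Direct RNA (vertical axis, bars of 1 SE) against the length of the longest coding transcript for the 18 chains, coloured by class. Grey lines are the medians of all genes in each length quartile, from 1.07 to -0.69, with the outer quartiles running past the axis, and 17 of the 18 chains lie below 0.

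Chains that share a molecule can be set side by side. Type I collagen is usually built from a pair of Col1a1 chains and a single Col1a2 chain. Col1a1 held 45.7% (95% interval 39.9 to 51.6) and 52.2% (45.7 to 58.5) of the reads of the pair in Direct RNA Day4. In cDNA Day4 it held 17.5% (11.3 to 25.9) and 30.1% (23.2 to 38.0). The intervals of the kits did not overlap, and the libraries had, in that order, this many Col1a1 reads per Col1a2 read: 0.841, 1.09, 0.212 and 0.430. Col4a1, of which the usual type IV molecule also holds a pair against a single Col4a2, had 1.46 and 1.64 reads per Col4a2 read in Direct RNA Day4, 4.17 and 1.82 in Direct RNA Undiff and 0.571 and 1.96 in cDNA Day4. The cDNA Day4 replicates differed beyond their intervals, at 36.4% (22.2 to 53.4) and 66.2% (54.3 to 76.3) of the pair. The 2 genes start head to head on chromosome 8 and their exons share 22 bases on opposite strands. Reads of that stretch can be assigned by strand in Direct RNA, while strand-specific gene counting is stated for that kit alone. Col5a1 had 0.939 and 5.38 reads per Col5a2 read in Direct RNA Day4, so the replicates of that group differed beyond their intervals, at 48.4% (36.6 to 60.4) and 84.3% (72.0 to 91.8) of the pair. In cDNA Day4 the ratios were 0.389 and 1.13, with overlapping intervals. Col6a1 had 1.84 and 1.16 reads per Col6a2 read in Direct RNA Day4. Per transcript base these ratios were 0.759 and 0.983 for type I, 1.42 and 1.60 for type IV, 0.740 and 4.24 for type V and 2.09 and 1.32 for type VI in Direct RNA Day4.

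**Figure D5:**
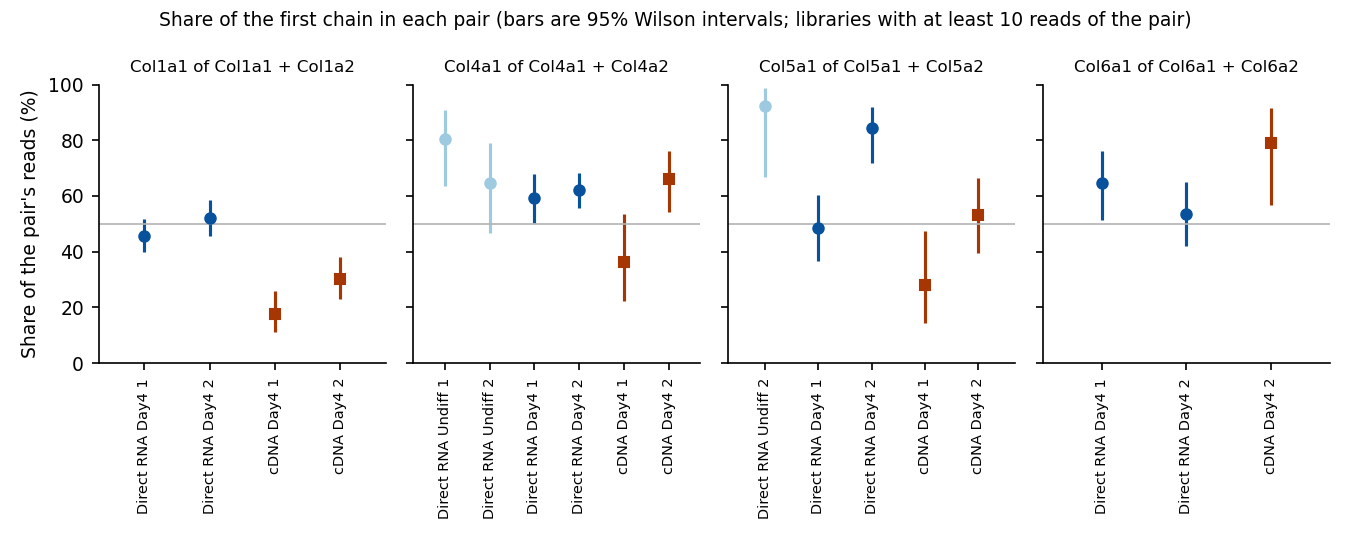
Share of the first chain among the reads of each pair (vertical axis, percent) in each library with at least 10 reads of the pair, with 95% Wilson intervals. The share of Col1a1 lies at 45.7% and 52.2% in Direct RNA Day4 and at 17.5% and 30.1% in cDNA Day4.

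Several of these genes are neighbours in the genome. On GRCm38, Col4a1 (chr8:11198423-11312826, minus strand, 52 exons) and Col4a2 (chr8:11312805-11449287, plus strand, 48 exons) both rose in Direct RNA. Col4a5 (chrX:141475385-141689234, plus strand) and Col4a6 (chrX:141165403-141474076, minus strand) start 1309 bases apart, and Col4a5 had 88.4% (75.5 to 94.9) and 81.5% (63.3 to 91.8) of the reads of the pair in the replicate 2 libraries of Day4 in Direct RNA and cDNA, but 50% (29 to 71) in cDNA Day4 replicate 1, while Direct RNA Day4 replicate 1 had 30 reads of Col4a5 and 0 of Col4a6. Col3a1 (chr1:45311538-45349706, plus strand) and Col5a2 (chr1:45374321-45503282, minus strand) lie tail to tail 24614 bases apart, and Col6a1 and Col6a2 follow each other on chromosome 10. Exons of 10 chains overlap an exon of a gene on the other strand, among them Col4a1, Col4a2 and Col5a1 of the chains called. Reads of these overlaps may alter their cDNA counts, in a direction that is not known.

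The Day4 replicates differed from each other in Direct RNA. Of the 19 chains with at least 10 reads in that group, 14 were higher in replicate 1, with a median log2 ratio of 0.54, while 50.8% of all genes were higher there, with a median of 0.01. In cDNA Day4, 6 of 19 chains were higher in replicate 1, with a median of -0.48, and 34.9% of all genes, with a median of -0.24. Replicate 1 of Direct RNA Day4 also had the lower level of pluripotent stem-like markers given above, as had replicate 1 of cDNA Day4, whose collagen share was not higher. The part of these markers in the collagen levels was not tested.

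Collagen chains need a set of enzymes and chaperones to fold, leave the cell and be cross-linked. Of 32 such genes, 21 had a mean of at least 5 in Direct RNA, of which 8 rose and 1 fell, and 22 in cDNA, of which 3 rose and 1 fell. Over all genes 17.2% were called in Direct RNA and 17.9% in cDNA, so the 4 of 22 called in cDNA lie near the share of all genes. The median log2 change was 1.12 and 1.34, against 0.03 and 0.00 over all genes. Serpinh1, the collagen chaperone HSP47, stood at 54.5 and 45.2 CPM in Direct RNA Undiff and at 1651 and 1712 CPM in Day4, and at 20.03 and 24.9 CPM and 846 and 1111 CPM in cDNA. Its log2 change was 4.94 (SE 0.32, adjusted p = 7.03e-49) and 5.01 (SE 0.41, adjusted p = 4.39e-31). The prolyl 4-hydroxylase subunits P4ha1 (3.69 and 3.53) and P4ha2 (3.50 and 2.91), which make the hydroxyproline that stabilises the triple helix, rose in both kits. Pcolce2, an enhancer of procollagen C-proteinase, fell in both (-4.16 and -3.86). It had 14 and 39 reads in Direct RNA Undiff against 1 and 0 in Day4, and 16 and 32 in cDNA Undiff against 2 and 1 in Day4. The 5 other genes that rose in Direct RNA, named after their values were seen, were Loxl1 (4.52), Loxl2 (3.65), Bmp1 (2.80), Fkbp10 (2.20) and P3h4 (1.86). None of these 5 was called in cDNA, where the values were 2.997, 2.06, 2.16, 1.56 and 0.05. edgeR called 13 genes of the list in each kit. Without a single library the count called in Direct RNA lay at 4 without Undiff replicate 2, Day4 replicate 1 or Day4 replicate 2, and at 7 without Undiff replicate 1. Of 8 collagen receptors, Itgb1 (1.29) and Mrc2 (2.46) rose in Direct RNA, with 0.70 (adjusted p = 0.546) and 2.50 (adjusted p = 0.161) in cDNA, and the discoidin domain receptor Ddr1 stood at 1.12 (adjusted p = 0.125) and 0.74 (adjusted p = 0.737).

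Markers of cell types that can make collagen were counted in the same fits, and the lists differed. Of all genes tested, 9.54% rose by the same rule with Direct RNA and 8.69% with cDNA. Of the 10 mesenchyme-like markers, all 5 with a mean of at least 5 in Direct RNA and 4 of 6 in cDNA rose, and their summed level was 43.0 and 72.7 CPM in Direct RNA Undiff, 607 and 752 in Direct RNA Day4, 27.4 and 32.1 in cDNA Undiff and 127 and 283 in cDNA Day4. Dcn, Lum, Postn and Prrx1 of this list had no read in any Undiff library. At Day4, Dcn had 2 and 1 reads in Direct RNA and 8 and 9 in cDNA, and Lum 0 and 1 and then 0 and 5. Of these genes Postn alone was called, in Direct RNA only. Of the 10 parietal endoderm-like markers, 5 of 6 and 5 of 5 rose, and Gata6 had no read in Undiff. The summed level went from 459 and 290 CPM to 2194 and 1539 in Direct RNA and from 106 and 134 CPM to 847 and 839 in cDNA. Much of it was Sparc, at 436 and 256 CPM in Direct RNA Undiff, 1048 and 700 in Direct RNA Day4, 99.1 and 123 in cDNA Undiff and 614.5 and 531 in cDNA Day4. Sox17, Sox7, Thbd and Srgn were not called in either kit. Of the 8 visceral endoderm-like markers, 4 of 4 and 2 of 5 rose, of the 6 endothelial-like markers 3 of 4 and 1 of 3, and of the 6 cartilage-like markers 2 of 2 and 2 of 3, where Acan had no read in Day4. Of the 5 smooth muscle-like markers 1 of 2 and 1 of 3 rose, and of the 7 neural-like markers none reached a mean of 5 in Direct RNA and 0 of 3 rose in cDNA. Some markers had negative log2 changes that were not called, in Direct RNA and cDNA respectively: Tagln of the smooth muscle-like list -1.19 and -2.02, Pecam1 of the endothelial-like list -1.29 and -0.77, Thy1 of the mesenchyme-like list -1.18 and -2.85, Amn of the visceral endoderm-like list -2.32 and -2.41, Matn3 of the cartilage-like list -0.11 and -2.64, and Neurod1 of the neural-like list -2.22 and -2.70. Lama1, a laminin chain of the parietal endoderm-like list, had 4 and 16 reads in Direct RNA Undiff and 2 and 7 in Day4. The part of any of these cell types in the collagen levels was not tested.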

How the data were processed

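For each of 8 libraries the deposited table gives counts, the whole number of reads on each gene. The authors aligned the reads to mm10 with minimap2 and made the counts with HTSeq, with no normalization; Strand-specific gene counting is stated for Direct RNA alone. Of the counted reads, between 38.1% and 61.7% fell in 5 counters given to no gene and were left out. Replicates were grown and treated separately per the study's methods.

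The members and gene lists were chosen with earlier results of these data known. All 24421 genes were fitted with DESeq2 1.42.0 in R 4.3.3 (Wald test, shrunken fold changes except for the interaction, Cook's cutoff and independent filtering off, as in the study's methods). A call needed a Benjamini-Hochberg adjusted p no higher than 0.05, a log2 fold change of 1 or more in either direction and a mean normalised count of 5 or more, and for the interaction the adjusted p alone. Alternatives were edgeR 4.0.16 (quasi-likelihood test), TMM factors, a minimum of 10 reads, filtering options, no shrinkage, a replicate block and leaving out each library. The fits were tested on simulated data, with changes planted only in genes above a minimum expected count and the same spread for all genes. That test does not speak for chains with few reads. Named genes are all chains called between states, kits or in the interaction with their values, other chains with a mean of at least 5 by fold change, and the biosynthesis genes called in both kits, up to the 5 with the largest mean change, and Serpinh1. Intervals were computed with Python 3.11.15 and scipy 1.17.1. Coordinates, lengths and overlaps come from GENCODE vM21 and matched all 44 chains. Pooled ratios carry exact counting intervals.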

Additional observations from a re-analysis of the deposited data

How the results depend on the processing

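No called value of a chain changed sign under any alternative. Values not called did: Col18a1 between states in cDNA was -0.14 without Undiff replicate 1, and interaction values of Col4a2, Col5a2 and Col18a1 changed sign under some alternatives. In Direct RNA, where 12 chains were called between states, 6 were called with a replicate block and 5 with the block and no shrinkage, a fit chosen after seeing the data, and between 6 and 11 with a library left out. In cDNA, where 5 were called, 11 were called by edgeR, 8 with at least 10 reads in total, 8 with independent filtering and the Cook cutoff, 0 with a replicate block, with or without shrinkage, and between 2 and 3 with a library left out. Biosynthesis genes called numbered 9 in Direct RNA, 6 with the block and no shrinkage and between 4 and 7 with a library left out, and 4 in cDNA, 13 by edgeR and 6 with at least 10 reads in total. The cause of these differences was not tested, and the share of all genes called under each alternative is not given.

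No source used here says that a replicate number marks a culture or day shared between states, and with 2 pairs the data cannot settle it. The differences between replicates of 1395 genes correlated at 0.214 between states in Direct RNA, 0.5 in cDNA, 0.124 between kits in Undiff and -0.416 in Day4. With a replicate block, Col3a1 stood at 1.68 (DESeq2 adjusted p = 0.830) for Direct RNA and 1.77 (adjusted p = 0.726) for cDNA, and without shrinkage at 11.8 (adjusted p = 0.0550) and 9.80 (adjusted p = 0.126). Unshrunk values of Col1a2 were 9.66 (adjusted p = 0.1725) and 8.42 (adjusted p = 0.241). The interaction called 0 chains under every alternative. Between kits 13 chains were called with the block and 12 with crossed Day4 numbers, chosen after seeing the data.

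Chains detected per library averaged 19, 30, 18.5 and 34.5 (Direct RNA Undiff and Day4, cDNA Undiff and Day4) with at least 1 read, 4, 14.5, 1 and 14 with at least 10 reads, and 8.70, 21, 2.24 and 14.9 when thinned, against 12.5, 24.5, 8 and 26.5. The collagen share averaged 0.0611%, 0.371%, 0.00692% and 0.0458%. It was 0.0343%, 0.224%, 0.00300% and 0.0262% of all counted reads, 0.0488%, 0.259%, 0.0100% and 0.0554% with TMM library sizes, and 0.0147%, 0.236%, 0.00269% and 0.0314% without the most abundant chain. Little can be said of the chains with few reads: 19 had at most 5 in every library, where low depth and low expression cannot be told apart.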
